A study of Mus musculus with 6 samples.

Results

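The genes described here are the potassium channel genes of the mouse, chosen by one rule: every protein-coding gene whose symbol starts with Kcn. There are 94 of them among the 35498 genes with a transcript in the deposited tables. They fall by symbol into 40 voltage-gated pore-forming (alpha) genes, 13 auxiliary genes of voltage-gated channels, 15 inward rectifiers, 14 two-pore channels and 12 calcium- or sodium-activated channel genes with their subunits. They were measured by poly-A RNA sequencing of heart tissue collected 7 days after a myocardial infarction, which was made by ligating the left anterior descending coronary artery. The mice were C57BL/6J and 8 to 10 weeks old. The tissue was ventricle below the ligature, and a tamoxifen diet ran from surgery to collection. All mice carried 1 copy of Postn-CreER (genotype Postn CreER+/-), a recombinase that tamoxifen activates and that the periostin promoter drives, mainly in activated fibroblasts. In the control group (CTL, n = 3) Runx1 was wild-type, and in the Runx1_FB_KO group (n = 3) the labels give the genotype as Runx1 fl, the conditional allele. The recombinase acts in periostin-expressing cells, while the RNA came from all cells of the tissue. The labels give sex as female, male and male for CTL replicates 1 to 3, and as male, female and female for Runx1_FB_KO.

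Potassium channels let potassium ions leave the cell and so end each cardiac action potential and hold the resting potential. In mouse ventricle, transient outward and delayed rectifier currents through voltage-gated channels carry repolarisation, inward rectifiers set the resting potential, and channels sensitive to ATP couple the membrane to metabolism. Other members act outside heart muscle: in vascular smooth muscle, in lymphocytes and in macrophages.

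The 6 libraries held 16598561 to 19987279 estimated reads. Where 3 values follow a group's name, they stand for replicates 1, 2 and 3 in that order, and where 2 such sets stand with "against" between them, CTL comes first. Values are in CPM (a gene's reads relative to the library's total, scaled by TMM) unless another unit is given. Runx1, the targeted gene, was at 96.4, 86.9 and 85.5 CPM in CTL against 17.5, 10.9 and 67.4 CPM in Runx1_FB_KO (log2 fold change -1.48, SE 0.63, edgeR adjusted p = 0.154, and without replicate 3 -2.61, edgeR adjusted p = 0.000142). The labels do not say which part of the gene is removed, so the remaining reads can include RNA of the recombined allele. Runx1_FB_KO replicate 3 lay closer to CTL than the other knockout libraries did. The 10 cardiomyocyte markers were all detected in every library, and their summed level was 10930, 11950 and 9392 CPM in CTL against 68190, 85660 and 22780 CPM in Runx1_FB_KO. For all 10, every knockout value lay above every CTL value, as for 20.2% of all genes tested. The 8 activated fibroblast markers summed to 34590, 36530 and 33770 CPM in CTL against 9245, 7957 and 29050 CPM in the knockout. For the 8 macrophage markers the sums were 1894, 1397 and 1497 CPM against 677, 607 and 1348 CPM. The 6 T and NK cell markers summed to 10.1, 15.9 and 9.05 against 2.42, 3.28 and 4.19 CPM. Endothelial markers differed less, at 764, 722 and 680.5 against 874, 799 and 763 CPM, and smooth muscle and pericyte markers were at 1205, 1228 and 1293 against 908, 842 and 1243 CPM. Of the 6 Schwann cell and neuron markers, which summed to 37.97, 17.1 and 17.8 against 11.3, 4.14 and 14.3 CPM, Snap25 was at 0 reads throughout. Wholly above CTL lay 0 fibroblast, 0 macrophage, 0 T and NK cell, 1 endothelial, 1 smooth muscle and pericyte and 0 Schwann cell and neuron markers. In the same order, 6, 4, 4, 2, 2 and 1 lay wholly below, as did 18.8% of all genes tested. The part of these cell types in the results on single channel genes was not tested. In bulk tissue, more cells of a type and more RNA per cell cannot be told apart.

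Of the 94 genes, 55 passed the filter on low counts and were tested. Kcnip2, Kcnd2, Kcnj3, Kcnj2, Kcnj11 and Kcnk3 were among those with higher values in every knockout library, and Kcnab2, Kcne4, Kcnk6 and Kcnk13 among those with lower values in every one. None passed an edgeR adjusted p of 0.05 in either direction (0 of 55, against 0% of all 14237 genes tested). The smallest adjusted p of any gene was 0.0682, shared by 770 genes, of which 8 were potassium channel genes, among them Kcnj11, Kcnj2, Kcnj3, Kcnk3, Kcnq1, Kcnd2 and Kcnip2. At an unadjusted p under 0.05 there were 20 members higher (36.4%, against 19.3% of all genes tested) and 4 lower (7.27%, against 13.1%). DESeq2 on the same genes called 20 higher (36.4%, against 15.4% of all genes) and 2 lower (3.64%, against 5.84%), Kcnd1 and Kcnk13. With no filter on low counts edgeR called 11 of 85 members higher (12.9%, against 4.21% of all genes) and 0 lower (against 0.193%). By the sign of the log2 fold change alone, 31 of the 55 were positive (56.4%, against 46% of all genes) and 24 negative (43.6%, against 54%).

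In 19 of the 55 tested genes (34.5%) all 3 knockout values lay above all 3 CTL values, against 20.2% of all genes tested, and in 6 (10.9%) they lay below, against 18.8%. With library size alone as the scaling these counts were 16 (29.1%, against 10.8%) and 10 (18.2%, against 39.8%). In 18 of the 19 higher genes and 6 of the 6 lower ones, Runx1_FB_KO replicate 3 was the knockout library nearest to CTL. Without that library edgeR tested 58 members and called 22 higher (37.9%, against 25.1% of all genes) and 11 lower (19.0%, against 22.5%). This fit keeps 2 knockout libraries and drops the one nearest to CTL in most of these genes, which in itself widens their differences. Its calls and p-values, here and where given for single genes, are therefore no separate support. The 22 included Kcna5, Kcna7, Kcnd2, Kcnd3, Kcne1, Kcng2, Kcnh2, Kcnip2, Kcnj2, Kcnj3, Kcnj5, Kcnj8, Kcnj11, Kcnj12, Kcnj14, Kcnk3, Kcnn1, Kcnn2, Kcnq1 and Kcnv2. The 11 were Kcnab2, Kcnd1, Kcne4, Kcnh1, Kcnj15, Kcnk1, Kcnk6, Kcnk13, Kcnma1, Kcnn4 and Kcnq3. A gene that passed the filter through the group where it is high had to differ, so these counts do not speak for all 94 genes.

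**Figure D1:**
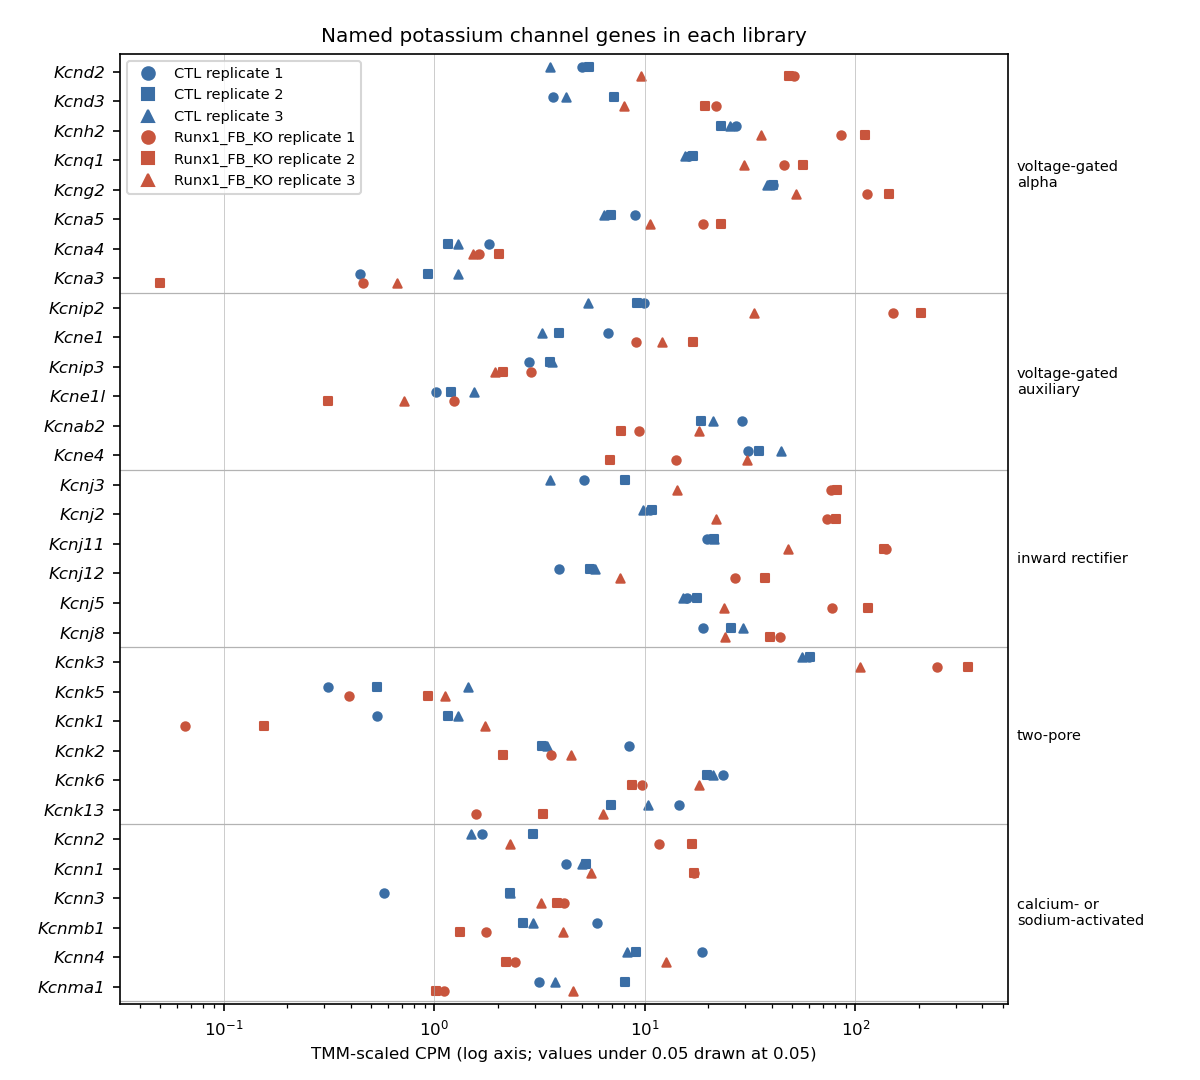
TMM-scaled CPM (log axis) of 32 of the potassium channel genes named by rule in each library, with CTL in blue and Runx1_FB_KO in red, and a marker shape for each replicate number. For Kcnd2, Kcnip2, Kcnj2, Kcnj3, Kcnj11 and Kcnk3 the red circle and square stand far to the right, and the red triangle, replicate 3, lies between them and CTL.

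Genes of the transient outward current had some of the largest fitted differences. This fast current gives the mouse ventricular action potential its steep early repolarisation. Its pores are Kcnd2 and Kcnd3, and Kcnip2 is the calcium-binding subunit that brings them to the membrane. Kcnip2 (ENSMUSG00000025221, GRCm38 chromosome 19, 45791839 to 45816061, minus strand) was at 9.87, 9.15 and 5.37 CPM in CTL against 151, 205 and 32.9 CPM in Runx1_FB_KO. The groups did not overlap, and the lowest knockout library was still well above the highest CTL library. Its log2 fold change came to 3.99 (SE 0.68, edgeR adjusted p = 0.0682), with Kcnv2 the highest of the 55 genes, and 4.49 without replicate 3 (edgeR adjusted p = 7.39e-05). Kcnd2 (ENSMUSG00000060882, GRCm38 chromosome 6, 21215503 to 21729805, plus strand) was at 5.03, 5.40 and 3.53 CPM in CTL against 50.9, 48.1 and 9.60 CPM in the knockout, with a log2 fold change of 2.95 (SE 0.61, edgeR adjusted p = 0.0682). Its groups did not overlap either, but replicate 3 of the knockout lay much nearer to CTL than to replicates 1 and 2. Kcnd3 had 3.65, 7.14 and 4.23 CPM in CTL against 21.7, 19.2 and 7.96 CPM in the knockout (log2 fold change 1.70, SE 0.44, edgeR adjusted p = 0.0753), and replicate 3 was just above the highest CTL library. Kcna4, the pore of the slow transient outward current, was low in both groups, at 1.82, 1.16 and 1.29 CPM in CTL against 1.64, 2.03 and 1.53 CPM in the knockout, and the groups overlapped (log2 fold change 0.28, SE 0.39, with library size alone -0.21). Kcnd1, a further gene of the Kcnd family, went the other way, with 5.78, 6.56 and 6.96 CPM in CTL against 1.70, 1.72 and 4.59 CPM in the knockout. All 3 knockout values of Kcnd1 lay below CTL (log2 fold change -1.25, SE 0.44, edgeR adjusted p = 0.118). It was named after its values were seen.

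The balance between these subunits also differed. Per length, in TPM (relative transcript number), the ratio of Kcnip2 to Kcnd2 was 5.54, 4 and 3.43 in CTL against 7.47, 10.97 and 8.79 in the knockout. The ratio of Kcnd2 to Kcnd3 was 1.23, 0.992 and 1.02 in CTL against 2.57, 3.22 and 1.52 in the knockout. In both ratios all knockout libraries, replicate 3 included, lay above all CTL libraries. These are 2 of 8 subunit ratios computed, which were chosen after the values were seen and carry no test. In 5 of the 8 the groups did not overlap, and 3, Kcnj2 to Kcnj12, Kcnq1 to Kcne1 and Abcc9 to Abcc8, overlapped.

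Kcnd2 and Kcnip2, which form a channel together and both had higher values in every knockout library, and Kcnj3 and Kcnj5, another such pair described below, are shown here by the 250 bases before their RefSeq start sites, 5′ to 3′ in the direction of the gene, on build GRCm38.p6. The RefSeq promoter table matched 69 of the 94 genes, with 94 start sites between them. Each sequence was searched on both strands for RUNX motifs (TGTGGT or TGCGGT), for a MEF2 motif (CTA, any 4 bases, TAG) and for a GATA motif (AGATAA). Capitals mark a match.
Kcnd2, chr6:21215096-21215345 (plus strand): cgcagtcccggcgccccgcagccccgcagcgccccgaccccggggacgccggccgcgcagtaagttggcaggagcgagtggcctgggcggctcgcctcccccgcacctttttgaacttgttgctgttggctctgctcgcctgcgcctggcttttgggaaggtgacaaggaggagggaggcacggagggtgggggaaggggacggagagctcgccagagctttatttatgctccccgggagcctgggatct
Kcnip2, chr19:45816064-45816313 (minus strand): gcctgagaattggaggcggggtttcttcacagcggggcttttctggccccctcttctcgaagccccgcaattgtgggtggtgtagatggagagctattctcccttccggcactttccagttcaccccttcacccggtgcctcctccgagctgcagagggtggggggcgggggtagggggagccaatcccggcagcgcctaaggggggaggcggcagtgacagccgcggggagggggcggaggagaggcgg
Kcnj3, chr2:55435720-55435969 (plus strand): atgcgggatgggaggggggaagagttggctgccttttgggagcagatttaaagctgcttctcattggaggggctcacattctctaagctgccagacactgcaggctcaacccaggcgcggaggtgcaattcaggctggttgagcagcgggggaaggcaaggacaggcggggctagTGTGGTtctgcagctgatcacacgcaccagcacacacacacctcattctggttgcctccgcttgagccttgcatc
Kcnj5, chr9:32344345-32344594 (minus strand): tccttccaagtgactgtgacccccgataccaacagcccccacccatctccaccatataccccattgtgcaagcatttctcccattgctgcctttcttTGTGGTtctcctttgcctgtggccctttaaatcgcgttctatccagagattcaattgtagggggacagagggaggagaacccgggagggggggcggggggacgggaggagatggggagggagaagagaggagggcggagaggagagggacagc
The windows of Kcnj3 and Kcnj5 each held TGTGGT once, from 75 to 70 bases before the start of Kcnj3 and from 153 to 148 bases before that of Kcnj5. Those of Kcnd2 and Kcnip2 held none of the letters searched. Over the family, 18 of 94 start sites (19.1%) had a RUNX motif in this window, against 18.6% of 32851 start sites of all genes. A MEF2 motif was found at 2 of 94 (2.13%, against 3.20%) and a GATA motif at 3 of 94 (3.19%, against 9.99%). These matches are descriptions of sequence, and binding was not measured.

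The delayed rectifier genes also had higher values in every knockout library. Kcnq1 and its partner Kcne1 form the slow delayed rectifier, and Kcnh2 forms the rapid one. Kcnq1 (GRCm38 chromosome 7, 143106362 to 143427042, plus strand) was at 16.2, 17.01 and 15.5 CPM in CTL against 45.6, 56.5 and 29.6 CPM in Runx1_FB_KO, groups far apart with a narrow CTL range. Its log2 fold change came to 1.43 (SE 0.25, edgeR adjusted p = 0.0682). Kcne1 had 6.67, 3.93 and 3.23 CPM in CTL against 9.04, 16.9 and 12.1 CPM in the knockout (log2 fold change 1.45, SE 0.37, edgeR adjusted p = 0.0726). Of the 19 higher genes Kcne1 was the one in which replicate 3 was not the knockout library nearest to CTL: replicate 1 was. Kcnh2 was at 27.1, 23.1 and 25.3 CPM in CTL against 85.2, 110.5 and 35.5 CPM in the knockout, without overlap (log2 fold change 1.61, SE 0.39, edgeR adjusted p = 0.069). The TPM ratio of Kcnq1 to Kcne1 was 0.795, 1.16 and 2.20 in CTL against 1.41, 1.21 and 0.948 in the knockout, with overlap. Most of the Kcne1 TPM came from the transcript ENSMUST00000166707.2, at 9.53, 7.54 and 4.395 TPM in CTL against 8.38, 10.6 and 12.4 TPM in the knockout. Salmon gave it 45.8, 36.5 and 18.3 reads against 54.5, 54.8 and 60.02 reads, so this ratio rests on few reads.

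Kcna5 carries a slowly inactivating potassium current of mouse ventricle. Kcna5 had 8.98, 6.92 and 6.37 CPM in CTL against 18.9, 22.9 and 10.5 CPM in the knockout (log2 fold change 1.23, SE 0.32, edgeR adjusted p = 0.0753). The groups did not overlap, and replicate 3 was the lowest knockout library. Kcng2 and Kcnv2 encode silent subunits, which give no current alone and modify other voltage-gated channels. Kcng2 was at 40.7, 40.7 and 38.1 CPM in CTL, a narrow range, and 114, 144 and 52.02 CPM in the knockout (log2 fold change 1.38, SE 0.35, edgeR adjusted p = 0.0736). Kcnv2, named after its values were seen, had 3, 21 and 5 reads in CTL against 135, 151 and 16 reads in the knockout. Only replicates 1 and 2 of the knockout, at 8.84 and 11.8 CPM, stood apart there. Replicate 3, at 0.817 CPM, was inside the CTL range of 0.133 to 0.938 CPM (log2 fold change 3.99, SE 1.10, edgeR adjusted p = 0.0819).

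The pattern was not shared by the whole voltage-gated alpha class. Of its 40 genes 23 were tested, 15 with positive and 8 with negative log2 fold changes (median 0.77, range -1.61 to 3.99). Over all genes tested, 46% were positive and 54% negative, with a median of -0.06. In 9 of the 23 the knockout lay wholly above CTL, in 2 wholly below, and in 12 the groups overlapped. Over all genes tested, 20.2% lay above and 18.8% below. One of the 9, Kcnh7, whose exons an antisense gene overlaps, had 1.02, 1.07 and 1.04 against 2.55, 1.64 and 1.28 CPM. The 2 were Kcnd1 and the silent subunit Kcns1, at 1.11, 1.12 and 1.54 against 0.589, 0 and 0.817 CPM. Kcnh7 and Kcns1 were named after their values were seen. Kcna3, a channel of lymphocytes, had 10, 21 and 26 reads in CTL against 7, 0 and 13 reads in the knockout, with overlap (log2 fold change -1.18, SE 0.93, edgeR adjusted p = 0.385). The sum of the T and NK cell markers given above was lower in all 3 knockout libraries, and 4 of the 6 markers lay wholly below CTL. Their part in the Kcna3 values was not tested. The 17 untested alpha genes had at most 15 reads in any library, and 6 of them had none anywhere.

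**Figure D2:**
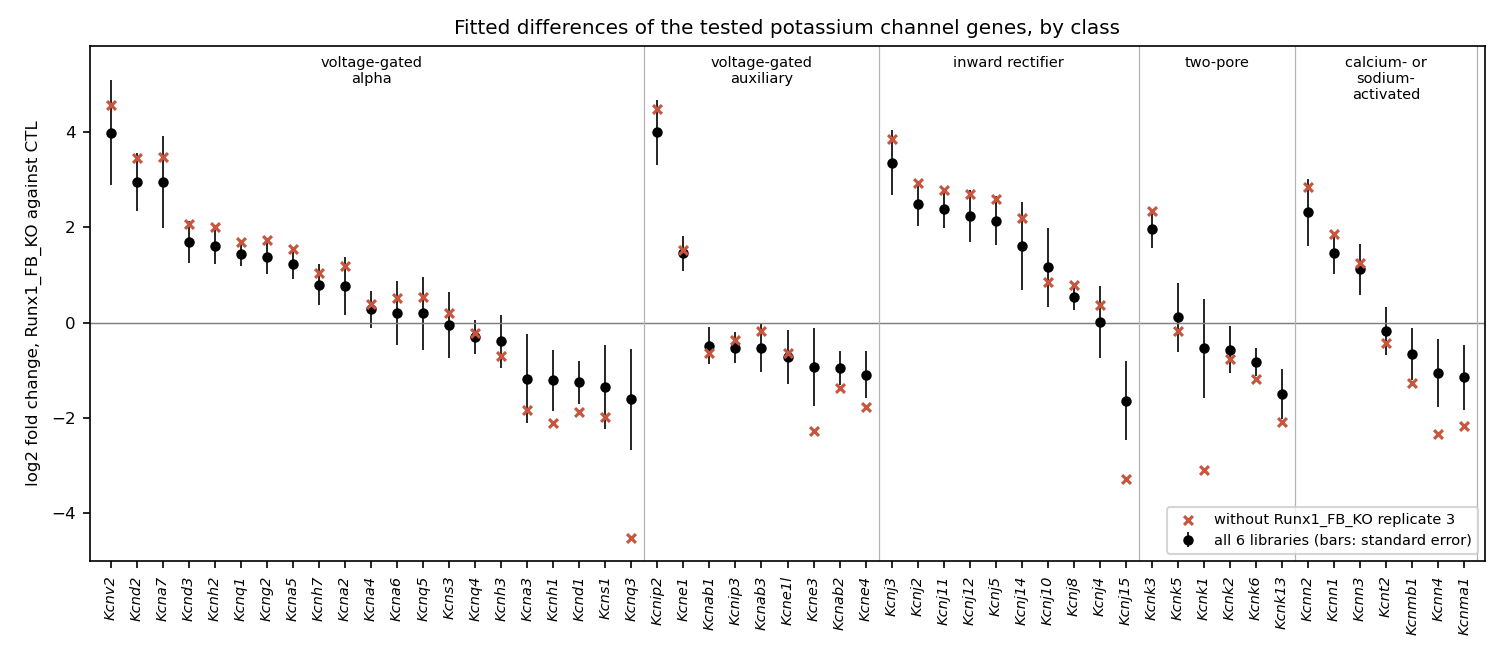
Fitted log2 fold change of 53 of the tested genes, by class, with its standard error (black, all 6 libraries) and the value without Runx1_FB_KO replicate 3 (red crosses). For most genes the cross lies farther from 0 than the black point, and the tested auxiliary genes lie below 0 apart from Kcnip2 and Kcne1.

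The inward rectifiers held the class with the highest median. Of 15 genes 10 were tested, and 9 had positive log2 fold changes (median 1.88), beside 46% of all genes tested. In 5 all knockout values lay above CTL (20.2% of all genes tested did), and in the other 5 the groups overlapped. Kcnj2 and Kcnj12 carry the classical inward rectifier current that holds the resting potential of ventricular muscle. Kcnj2 (GRCm38 chromosome 11, 111066164 to 111076821, plus strand) was at 10.5, 10.8 and 9.85 CPM in CTL against 73.2, 81.2 and 21.8 CPM in Runx1_FB_KO (log2 fold change 2.50, SE 0.47, edgeR adjusted p = 0.0682). Kcnj12 had 3.91, 5.49 and 5.77 against 26.8, 37.2 and 7.61 CPM (log2 fold change 2.23, SE 0.55, edgeR adjusted p = 0.0709). The groups of both genes were separate, with replicate 3 of the knockout near the top of CTL for Kcnj12. Their ratio in TPM, 1.01, 0.727 and 0.658 in CTL against 1.04, 0.816 and 1.07 in the knockout, overlapped between the groups.

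Kcnj3 and Kcnj5 assemble into the channel opened by G proteins after muscarinic stimulation, best known in the atrium and the nodes. Kcnj3 (GRCm38 chromosome 2, 55435970 to 55598145, plus strand) was at 5.16, 8.04 and 3.53 CPM in CTL against 76.1, 81.4 and 14.2 CPM in the knockout. Its log2 fold change of 3.35 (SE 0.68, edgeR adjusted p = 0.0682) was the highest among the inward rectifiers. Kcnj5 (GRCm38 chromosome 9, 32314707 to 32344350, minus strand) was at 15.9, 17.6 and 15.1 CPM in CTL against 77.1, 114 and 23.7 CPM in the knockout (log2 fold change 2.14, SE 0.51, edgeR adjusted p = 0.0691). Neither gene's groups overlapped. The TPM ratio of Kcnj3 to Kcnj5 was 0.336, 0.466 and 0.186 in CTL against 0.931, 0.744 and 0.566 in the knockout, so it was higher in every knockout library.

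The transcripts of Kcnj3 were also divided differently. Salmon gave ENSMUST00000112632.1, a form with a coding sequence of 235 residues, 419, 228 and 61.5 reads in the knockout, which was 36, 21.9 and 22.2% of the gene's reads. In each CTL library it was given 0 reads, where the whole gene had 116, 180 and 71 reads. There are 2 forms of 501 residues. ENSMUST00000067101.9 held 88.7, 90 and 100% of the gene's reads in CTL against 64, 71.6 and 73.3% in the knockout, and ENSMUST00000112633.2 held 11.3, 9.996 and 0% against 0, 6.52 and 4.54%. These are Salmon's allocations between transcripts that share sequence, at few reads in CTL, and were singled out after the values were seen.

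The channels sensitive to ATP pair a pore, Kcnj11 or Kcnj8, with a sulfonylurea receptor, Abcc9 or Abcc8. Kcnj11 (ENSMUSG00000096146, GRCm38 chromosome 7, 46093953 to 46100764, minus strand), the pore of ventricular muscle, was at 19.6, 21.2 and 21.3 CPM in CTL against 139, 137 and 47.7 CPM in Runx1_FB_KO. CTL varied little, and each knockout library stood well clear of it (log2 fold change 2.38, SE 0.40, edgeR adjusted p = 0.0682). Kcnj8, the pore of vascular smooth muscle and pericytes, was at 18.9, 25.6 and 29.1 CPM in CTL against 43.6, 39.3 and 24.1 CPM in the knockout. Its replicate 3 lay inside the CTL range (log2 fold change 0.54, SE 0.27, edgeR adjusted p = 0.201). The TPM ratio of Kcnj11 to Kcnj8 was 1.04, 0.844 and 0.595 in CTL against 3.003, 3.35 and 1.59 in the knockout, without overlap. Abcc9 was at 67.2, 84.6 and 71.9 CPM in CTL against 445, 444 and 119.7 CPM in the knockout (log2 fold change 2.17, SE 0.49, edgeR adjusted p = 0.0682). Per length, the TPM ratio of Abcc9 to Kcnj11 was close to 1 in both groups, at 1.07, 1.23 and 1.30 in CTL against 1.06, 1.03 and 0.954 in the knockout, with every knockout library below every CTL library. Abcc8 was lower in level, with 7.92, 6.65 and 4.97 against 49.2, 55.04 and 14.6 CPM (log2 fold change 2.60, SE 0.50, edgeR adjusted p = 0.0682). The TPM ratio of Abcc9 to Abcc8, 2.79, 6.84 and 7.72 in CTL against 5.02, 3.69 and 3.38 in the knockout, overlapped.

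Kcnj15 and Kcnj14 were, with Kcnj8, among the 5 tested inward rectifiers whose groups overlapped. Kcnj15 was the 1 tested gene of the class with a negative log2 fold change. Kcnj15 and Kcnj14 were named after their values were seen. Kcnj15, an inward rectifier known from epithelia, was at 73.5, 135 and 85.8 CPM in CTL against 13.1, 6.48 and 74.9 CPM in the knockout. Replicates 1 and 2 of the knockout were far below CTL and replicate 3 was inside the CTL range (log2 fold change -1.63, SE 0.84, edgeR adjusted p = 0.209). Without replicate 3 the log2 fold change was -3.27 (edgeR adjusted p = 0.000566). The summed activated fibroblast and macrophage markers given above were likewise lowest in replicates 1 and 2 of the knockout, while replicate 3 was below all CTL libraries in both sums. Their part in the Kcnj15 values was not tested. Kcnj14 was at 10.9, 13.7 and 4.77 CPM in CTL against 30.2, 57.1 and 2.71 CPM in the knockout, where replicate 3 lay below every CTL library and replicates 1 and 2 above (log2 fold change 1.61, SE 0.92, edgeR adjusted p = 0.248).

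Two-pore channels carry background potassium currents, and here they split by gene. Of 14 genes 6 were tested, with 2 positive and 4 negative log2 fold changes (median -0.55), beside 46% and 54% of all genes tested. In 1 of the 6 the knockout lay wholly above CTL and in 2 wholly below, beside 20.2% and 18.8% of all genes tested. Kcnk3, an acid-sensitive background channel of heart muscle, was at 60.2, 60.9 and 55.8 CPM in CTL against 244, 341 and 105 CPM in Runx1_FB_KO, without overlap (log2 fold change 1.96, SE 0.40, edgeR adjusted p = 0.0682). Kcnk6 and Kcnk13, both known from cells of the macrophage lineage, had lower values in the knockout. Kcnk6 was at 23.6, 19.6 and 21.1 CPM in CTL against 9.69, 8.67 and 17.97 CPM in the knockout (log2 fold change -0.82, SE 0.30, edgeR adjusted p = 0.122). Kcnk13 was at 14.5, 6.88 and 10.3 against 1.57, 3.28 and 6.33 CPM (log2 fold change -1.49, SE 0.53, edgeR adjusted p = 0.117). All knockout values of both genes lay below CTL, replicate 3 the closest. Macrophage markers summed to 1894, 1397 and 1497 CPM in CTL against 677, 607 and 1348 CPM in the knockout. Of the 8, 4 were wholly lower (18.8% of all genes tested were) and 0 wholly higher (20.2% were), and the others overlapped. Cd163 was the 1 marker with a positive log2 fold change (0.38, SE 0.42). The part of these markers was not tested. For Kcnk2, a stretch-activated channel, the values were 8.40, 3.26 and 3.43 CPM in CTL against 3.60, 2.11 and 4.44 CPM in the knockout, and the groups overlapped (log2 fold change -0.57, SE 0.49). Kcnk1 and Kcnk5 were under 2 CPM in every library and their groups overlapped (log2 fold changes -0.54, SE 1.03, and 0.11, SE 0.72). The 8 untested two-pore genes had at most 13 reads in a library, and 3 had none.

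The calcium-activated channels also split, between the small-conductance genes and the others. Kcnn1, Kcnn2 and Kcnn3 encode small-conductance channels found in heart muscle. Kcnn1 was at 4.22, 5.22 and 5.02 CPM in CTL against 17.1, 17.1 and 5.56 CPM in the knockout, with replicate 3 only just above CTL (log2 fold change 1.46, SE 0.43, edgeR adjusted p = 0.0915). Kcnn2 was at 1.69, 2.95 and 1.49 against 11.7, 16.8 and 2.30 CPM, and replicate 3 lay within CTL (log2 fold change 2.32, SE 0.70, edgeR adjusted p = 0.0931). An antisense gene overlaps an exon of Kcnn2, and the sources used here do not say whether the counting used strand. Kcnn3 was low, at 0.578, 2.28 and 2.29 against 4.12, 3.83 and 3.22 CPM, though its groups did not overlap (log2 fold change 1.12, SE 0.54, edgeR adjusted p = 0.188).

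Kcnn4, the intermediate-conductance channel of lymphocytes, macrophages and dividing fibroblasts, was at 18.7, 9.11 and 8.25 CPM in CTL against 2.42, 2.19 and 12.6 CPM in the knockout. Replicates 1 and 2 of the knockout were under all CTL libraries and replicate 3 was between them (log2 fold change -1.05, SE 0.72, edgeR adjusted p = 0.32; without replicate 3 -2.33, edgeR adjusted p = 0.0039). Kcnma1, the large-conductance channel of smooth muscle, and its subunit Kcnmb1 had the same order. Kcnma1 was at 3.16, 8.08 and 3.73 CPM in CTL against 1.11, 1.01 and 4.54 CPM in the knockout (log2 fold change -1.14, SE 0.68, edgeR adjusted p = 0.265). Kcnmb1 was at 5.91, 2.63 and 2.93 against 1.77, 1.33 and 4.08 CPM (log2 fold change -0.66, SE 0.54, edgeR adjusted p = 0.402). The smooth muscle and pericyte markers had a median log2 fold change of -0.71, with 5 of 6 negative (54% of all genes tested were). Of the 6, 2 were wholly lower (18.8% of all genes tested) and 1, Rgs5, wholly higher (20.2%). Myh11 overlapped between the groups (log2 fold change -0.21, SE 0.19). The part of these markers was not tested. Of the 12 genes of this class 7 were tested, 3 with positive and 4 with negative log2 fold changes (median -0.18). Over all genes tested, 46% were positive and 54% negative. In 2 of the 7 the knockout lay wholly above CTL and in 0 wholly below, beside 20.2% and 18.8% of all genes tested.

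Apart from Kcnip2 and Kcne1, the auxiliary genes of voltage-gated channels had negative log2 fold changes, in 7 of 9 tested (class median -0.54). Over all genes tested, 54% were negative. The knockout lay wholly above CTL in 2 of the 9 and wholly below in 2, beside 20.2% and 18.8% of all genes tested. Kcnab2, a beta subunit of voltage-gated channels, was at 28.9, 18.4 and 20.98 CPM in CTL against 9.36, 7.73 and 18.1 CPM in Runx1_FB_KO (log2 fold change -0.95, SE 0.35, edgeR adjusted p = 0.128). Another gene on the same strand shares exon sequence with Kcnab2, so reads could be split between them. Kcne4, an inhibitory partner of Kcnq1, was at 31.04, 34.9 and 44.3 CPM in CTL against 14.01, 6.79 and 30.5 CPM in the knockout (log2 fold change -1.09, SE 0.49, edgeR adjusted p = 0.17). All knockout values of Kcnab2 and Kcne4 lay under CTL, but replicate 3 was only just below the lowest CTL library in both. Kcnip3, of the same family as Kcnip2, had 2.80, 3.53 and 3.63 CPM in CTL against 2.88, 2.11 and 1.94 CPM in the knockout, with overlap (log2 fold change -0.52, SE 0.33), and Kcne1l was near 1 CPM with overlap (log2 fold change -0.71, SE 0.57).

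Summed over its genes, a class can be led by a few members. The voltage-gated alpha genes summed to 135, 152 and 142 CPM in CTL against 443, 504 and 204 CPM in the knockout, the auxiliary genes to 87.2, 77.9 and 88.5 against 192, 243 and 103 CPM, and the two-pore genes to 108, 92.9 and 94.1 against 259.5, 356 and 137 CPM. In these 3 classes the groups did not overlap, although most auxiliary and two-pore genes had negative log2 fold changes: Kcnip2 and Kcnk3 made up most of their class sums in replicates 1 and 2 of the knockout. The inward rectifiers summed to 160, 239 and 176 against 482, 555 and 219 CPM, where replicate 3 was inside the CTL range. The calcium- or sodium-activated genes summed to 42.6, 45.2 and 35.6 against 50.7, 46.1 and 45.8 CPM, where the knockout was above CTL by a narrow margin. All 94 genes together took 533, 608 and 536 CPM in CTL against 1427, 1704 and 708 CPM in the knockout.

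**Figure D3:**
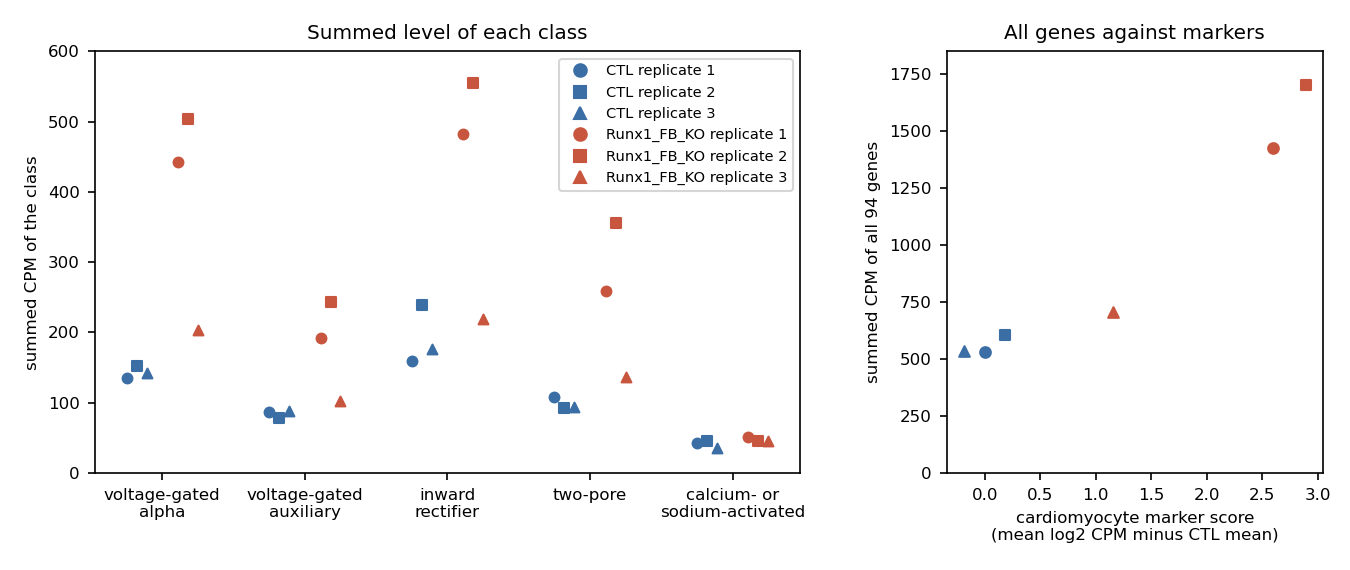
Left, summed TMM-scaled CPM of each class in each library. Right, the sum of all 94 genes against the cardiomyocyte marker score, the mean log2 CPM of 10 markers minus its CTL mean, in which the libraries stand in the same order from Runx1_FB_KO replicate 3 upward and the 3 CTL libraries lie together.

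Levels of different genes can be compared only per length. In TPM, which the authors' Salmon run scales over all transcripts including the mitochondrial ones, CTL was led by Kcng2, Kcnj15, Kcnk3 and Kcne4, at 61.1 ± 19.9, 48.7 ± 16.4, 29.1 ± 0.616 and 24.5 ± 4.77 TPM (mean ± SD, n = 3). Kcng2 owes part of its level to a short transcript, and its longest form alone was at 28.6, 28.6 and 27.9 TPM in CTL, close to Kcnk3. For Kcnj15 too, a short transcript, ENSMUST00000138329.1, held 14.5, 24.6 and 11.4 TPM in CTL. It had 1.21, 1.17 and 0.773% of the gene's reads there. In the knockout the order was Kcng2, Kcnk3, Kcnip2, Kcnj11 and Kcnh2, at 69.8 ± 13.4, 62.9 ± 19.6, 58.3 ± 31.6, 39.8 ± 13.03 and 24.6 ± 6.93 TPM (mean ± SD, n = 3). The first 3 of these do not differ beyond their spread. The longest Kcng2 form alone was at 41.01, 53.7 and 33.7 TPM in the knockout, below Kcnk3 at 59.8, 83.8 and 45.01 TPM. Kcnip2 was 14th in CTL, at 9.13, 7.01 and 4.12 TPM, and 3rd in the knockout, at 63.8, 86.8 and 24.4 TPM. Kcne4 was 4th in CTL, at 21.01, 22.6 and 29.97 TPM, and 16th in the knockout, at 4.65, 2.23 and 17.5 TPM. Mitochondrially encoded genes took 5.36% to 7.10% of the reads in CTL and 24.5%, 19.6% and 10.4% in the knockout, which lowers the TPM of all other genes there.

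Set against the mean of the cardiomyocyte markers, most of the higher channel genes were not higher. For each library the mean log2 CPM of the 10 markers was subtracted from the log2 CPM of each channel gene, a description chosen after the values were seen. The 10 markers did not move together: their log2 fold changes ran from 1.33 (Mybpc3) to 3.23 (Myh6). The outcome therefore depends on the markers averaged. Of the 19 genes with all knockout values above CTL, 9 then had all knockout values below CTL, 9 overlapped and 1, Kcnip2, was still above. Kcnip2 was at -6.38, -6.67 and -7.05 relative to the markers in CTL against -5.06, -4.91 and -5.81 in the knockout on the log2 scale, a mean difference of 1.45. None of the other 54 tested genes had all knockout values above CTL on this scale. All 6 lower genes were again lower, and so were 22 of the 30 genes whose groups had overlapped. The marker mean itself was 2.60, 2.89 and 1.15 above its CTL mean in the knockout libraries. A gene that rose less is therefore lowered by the subtraction, and no share over all genes was computed on this scale. Kcnj3, with a mean difference of 0.84, and Kcnd2, with 0.40, overlapped. Kcnj2 and Kcnj11 tracked the marker mean closely: the relative values of Kcnj11 were -5.40, -5.47 and -5.09 in CTL against -5.17, -5.49 and -5.27 in the knockout. Below the marker mean lay Kcnq1, Kcnh2, Kcng2 and Kcna5, with mean differences of -0.83, -0.75, -0.96 and -1.05. Of these, Kcnq1 (1.43), Kcnh2 (1.61) and Kcng2 (1.38) had log2 fold changes above that of Mybpc3, and Kcna5 (1.23) did not. A difference from the marker mean shows unequal change between genes and does not say which of them changed. With the marker score as a covariate in edgeR, 41 of 55 log2 fold changes turned sign, 0 genes passed, and Kcnip2 had a log2 fold change of 0.25. The share of all genes that turned sign was not computed, so the 41 are no result about channel genes. The score was higher in every knockout library than in every CTL library, so this fit can hardly separate it from genotype.

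**Figure D4:**
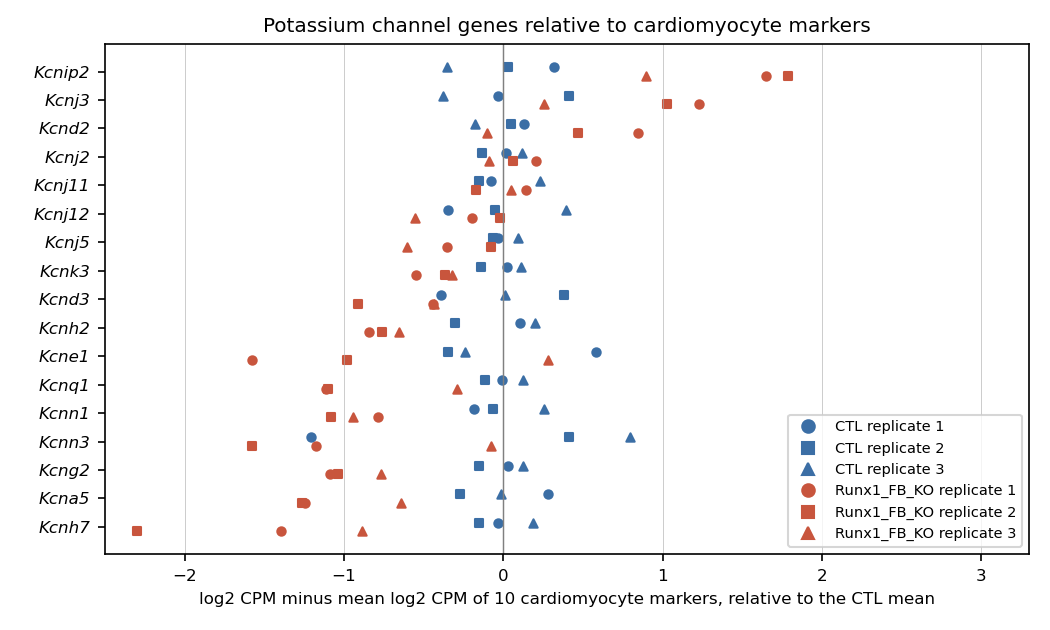
Log2 CPM of 17 of the genes with all knockout values above CTL, after subtraction of the mean log2 CPM of 10 cardiomyocyte markers and shown relative to the CTL mean (vertical line at 0). Kcnip2 is the gene whose 3 red points all lie right of its blue points, and for 9 genes all red points lie left of the blue ones.

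Isoforms of Kcnip2 and Kcnh2 were measured with wide spread. The longest Kcnip2 form, ENSMUST00000162528.8 (270 residues), held 39.9, 84.1 and 85.7% of the gene's reads in CTL against 64.5, 69.4 and 51.98% in Runx1_FB_KO. ENSMUST00000079431.9 (252 residues) held 54.99, 14.8 and 6.26% against 25.4, 24.9 and 36.5%. For Kcnh2, the form ENSMUST00000036092.9 (1162 residues) held 35.8, 64.9 and 56.7% of reads in CTL against 66.9, 67.5 and 50.8% in the knockout, and the shorter ENSMUST00000115098.6 (820 residues) held 64.2, 34.9 and 40.5% against 28.6, 31.8 and 48.6%. The groups overlapped for each of these 4 shares.

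Genes that work beside the potassium channels were read from 4 further lists, in which 0 genes passed an edgeR adjusted p of 0.05. Of 15 cardiac sodium, calcium and pacemaker channel genes, all tested, 6 had knockout values wholly above CTL (20.2% of all genes tested did) and 2 wholly below (18.8% of all genes did), with a median log2 fold change of 1.29. The calcium channel gene Cacna1d had lower values in every knockout library, at 18.5, 10.9 and 13.3 against 3.40, 4.53 and 7.71 CPM (log2 fold change -1.44, SE 0.36, edgeR adjusted p = 0.0727). Of 14 partner proteins of potassium channels 9 were tested, 4 wholly above CTL (Abcc8, Abcc9, Cav3 and Dlg1) and 0 wholly below, beside the same 20.2% and 18.8% of all genes (median 0.48). Dpp6 and Dpp10, partners of the Kcnd channels in neurons, were under 0.3 CPM in every library and were not tested. When replicate 3 of the knockout was left out, the first of these lists had 11 genes called higher by edgeR and 2 called lower, against 6 and 1 in the second list, beside 25.1% higher and 22.5% lower over all genes of that fit.

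The sodium-potassium pump and the potassium cotransporters, 12 genes in all, had a median log2 fold change of 0.13, with 5 wholly above and 1 wholly below CTL, beside 20.2% and 18.8% of all genes tested. Among 12 transcription factors tied to cardiac repolarisation genes, 9 were wholly above CTL and 0 below, beside the same shares (median 0.77). Irx5, which represses Kcnd2 across the ventricular wall, was at 4.49, 3.93 and 4.92 CPM in CTL against 12.2, 17.5 and 5.51 CPM in the knockout (log2 fold change 1.40, SE 0.42, edgeR adjusted p = 0.0917), and Klf15, an activator of Kcnip2, at 9.07, 15.6 and 14.1 against 48.9, 61.05 and 13.9 CPM with replicate 3 inside the CTL range (log2 fold change 1.68, SE 0.52, edgeR adjusted p = 0.0958). Without replicate 3 edgeR called 6 higher and 2 lower among pump and cotransporters, and 10 and 0 among the transcription factors, beside 25.1% and 22.5% of all genes.

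Of the 94 genes, 39 were not tested. In no library did one of them exceed 27 reads, and 9 had 0 reads in all 6 libraries. They are given here by these counts alone.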

How the data were processed

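The authors deposited 1 Salmon table per library, with estimated counts, TPM, length and effective length for 116546 transcripts. Salmon 1.5.2, DESeq2 1.44.0 and build mm10 (GRCm38) are named per the submitters' processing notes. Release of the annotation and strand setting: not given in the sources used here. Gene totals of the deposited estimated counts were made with GENCODE M21 (115977 transcripts matched, and 569 held 0.0777% to 0.102% of a library's reads and were left out) and rounded. The deposited TPM values were summed per gene and used only between genes. The lengths (other values in those files) were not used directly.

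Genes were filtered with filterByExpr and scaled by TMM (factors 0.732 to 1.214). Runx1_FB_KO was compared with CTL on genotype alone with edgeR 4.0.16 quasi-likelihood tests, two-sided, with Benjamini-Hochberg adjustment over 14237 genes and a threshold of 0.05. Standard errors were taken as |log2 fold change| over the root of the F statistic. Log2 CPM used a prior count of 2. Groups and replicate numbers came from the titles, and p-values measure the spread between these libraries. The script was tested on simulated data with 200 changed genes. Members, classes and lists were chosen with earlier results of these data known. The named genes are the 6 members with the smallest p in each class and 24 with textbook roles, 33 in all. Some genes of these lists are not reported here by name, and counts, sums and medians include them. Alternatives were RLE, upper quartile and library size scaling, no filter or a CPM of at least 1 in 3 samples, DESeq2 1.42.0, limma-voom (limma 3.58.1), sex, replicate number or cardiomyocyte score as a term, protein-coding genes only, and each library left out. Promoter sequences are from RefSeq (GRCm38.p6). A protein table was not used here.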

Additional observations from a re-analysis of the deposited data

How the results depend on the processing

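Among all 6 libraries, the count of potassium channel genes called was 0 in each direction under RLE, upper quartile and library size scaling, a CPM filter, limma-voom, sex as a covariate and protein-coding genes only. It was 11 higher and 0 lower with no filter, and 20 higher and 2 lower with DESeq2. With each library left out in turn the counts ran over 0 to 22 higher and 0 to 11 lower, and only the omission of Runx1_FB_KO replicate 3 gave any call. The cause was not tested. With the replicate number as a block there were 0 calls. The numbers do not pair the libraries: the correlations of same-numbered deviations were -0.05, 0.11 and 0.08, and 1 of 3 CTL libraries correlated best with its own number.

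The median log2 fold change of the tested members, 0.20, was -0.31 with library size alone (where that of all genes was -0.52), -0.18 with no filter, 0.65 with the CPM filter, and -0.020 to 0.38 with a library left out. These filters change which genes enter. For the voltage-gated alpha class (0.77) it was 0.21 with library size alone, 1.22 with the CPM filter and 0.20 to 0.89 with a library left out. For the auxiliary class (-0.54) it was -1.07 with library size alone, and for the inward rectifiers (1.88) 0.53 with no filter. With the cardiomyocyte score as a covariate, which leaves 3 residual degrees of freedom, the medians turned sign: -0.21 for voltage-gated alpha, 0.29 for auxiliary, -0.45 for inward rectifier, 0.39 for two-pore and 0.86 for calcium- or sodium-activated genes. The count of genes wholly below CTL went from 6 to 10 with library size alone.

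Under that covariate the log2 fold changes of 24 of the 33 named genes turned sign, none past the threshold: Kcna3 1.05, Kcna4 -0.089, Kcna5 -0.21, Kcnab2 0.46, Kcnd2 -0.57, Kcnd3 -0.33, Kcne4 1.002, Kcng2 -0.53, Kcnh2 -0.48, Kcnj12 -0.79, Kcnj2 -0.15, Kcnj3 -0.45, Kcnj5 -0.88, Kcnj8 -0.45, Kcnk1 3.24, Kcnk13 0.12, Kcnk2 0.37, Kcnk3 -0.21, Kcnk6 0.42, Kcnma1 0.86, Kcnmb1 1.09, Kcnn1 -0.84, Kcnn2 -1.77 and Kcnn4 1.64. No share over all genes was computed for these turns of sign, and the score was higher in every knockout library than in every CTL library. With library size alone Kcna4 had -0.21 and Kcnk5 -0.31. With a library left out Kcnk2 ran over -0.80 to 0.024 and Kcnk5 over -0.26 to 0.94. The other named genes kept their direction under every alternative run. At depths of 16598561 to 19987279 reads, genes under about 1 CPM rest on few reads.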
